A study of Drosophila melanogaster with 312 samples.

Results

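The comparison concerned the females of long population 1 (L1), a fruit fly population selected for long night sleep. Libraries were taken by their labels alone: 8 female L1 libraries of generations 10, 11, 12 and 13 (late) were set against 8 female L1 libraries of generations 0, 2, 3 and 4 (early), which makes 16 of the 312 RNA-seq libraries of the series. The study held 6 populations, L1 and L2 bred from the longest sleepers at night, S1 and S2 bred from the shortest sleepers, and C1 and C2 bred from flies picked at random. All 6 were drawn from 1 outbred population made from 10 inbred lines of the Drosophila Genetic Reference Panel, so early and late L1 flies descend from the same founders and differ in the rounds of selection behind them. Every library came from a pool of 10 whole virgin females frozen in the light phase, without any drug or transgene, and 2 pools were sequenced for each population, sex and generation. The late L1 flies were the offspring of parents selected over 10 to 13 rounds, and the generation 0 flies of L1 were sampled before any selected parent had contributed.

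L1 is a single population kept in a bottle, and flies were not exchanged with L2. Selection, drift, and the calendar time or handling of a generation therefore cannot be told apart within L1. The other 5 female populations, sampled at the same generations, show which changes went along with generation everywhere. The 2 pools of a generation share their parents, so their counts were summed and the generation was the unit of the test, 4 late against 4 early.

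Whole virgin females are dominated by the ovary, gut, fat body, muscle and head. In the ovary, short piRNAs guide proteins of the germline to transposons and silence them, with different proteins needed to transcribe the piRNA clusters and to silence the targets, and meiosis needs proteins that make and repair DNA breaks. In the fat body, bacteria switch on antimicrobial peptides. In neurons, the circadian clock, ion channels and neurotransmitter receptors take part in the control of sleep. In whole-body RNA a lower level can come from fewer cells of a type or from less RNA per cell, and these cannot be told apart.

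Total counts on genes lay between 40293266 and 77881505 in the 8 late L1 libraries and between 39333107 and 52436755 in the 8 early ones. Levels are given as normalized counts, which are raw counts divided by the size factor that the authors used for that library. The labelled sex was borne out by 24 genes of testis, accessory gland and dosage compensation, whose summed level was 62.5 to 124 in late and 74.4 to 139 in early L1 females, against 229748 to 348685 in L1 males. In 1 early C2 library (generation 2, pool 1) the same sum was 5728, and without this library 48 genes in place of 47 changed in L1 and 9, as with it, differed from the mean of the other 5 populations. The summed level of 25 ovary and eggshell genes overlapped, at 230187 to 651085 in late and 244432 to 641431 in early L1 females. The sum of 25 muscle sarcomere genes ran higher, at 114006 to 152673 in late against 95134 to 121300 in early L1 females, with some overlap, and its part in the results below was not tested. On the first principal component of the 26 L1 female libraries (24.6% of the variance), the first pools of generation 11 and generation 0 stood apart from the rest, and counts without them are given beside the main ones.

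With edgeR's quasi-likelihood test, 47 of 10076 genes (0.466%) changed between late and early L1 females at an adjusted p under 0.001, 23 of them higher (0.228%) and 24 lower (0.238%) in late flies. The median log2 change was 0.91 among the rises and -1.06 among the falls, and 10 rises and 15 falls reached 2-fold. Without the first pool of generation 11 the count was 43, without the first pool of generation 0 it was 49, and without both it was 45. The number rests on the unit of the test and on single generations, and it was 903 with every library as a unit, 110 with DESeq2, 12 without generation 11, 13 without generation 12, 10 without the second pools and 0 when only the 8 sums of L1 were fitted. At an adjusted p under 0.05 the count was 1049 (10.4%), and 2978 genes had an unadjusted p under 0.05. In 39 of the 47 genes the 8 late libraries did not overlap the 8 early ones, against 4.93% of all genes tested. The calls rest on the same libraries, so this adds no further support. A lack of overlap was also a condition for naming the largest rises and falls, and below it only describes them. The other 8 genes, CG17816, CG31612, CG3165, CG32814, CG9121, CR43105, Cph and EcR, overlapped in at least 1 library.

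The gene that differed from the most other populations was kra (krasavietz, FBgn0250753, 3R:5595364-5601136, minus strand). It encodes a regulator of translation initiation that is known in flies for roles in long-term memory and in the response to ethanol. The 8 late L1 libraries had 16109, 19120 and 26153 normalized counts of kra (lowest, median and highest), and the 8 early ones had 33630, 39548 and 46834. Every late library lay below every early one. The mean was 19643 ± 3022 in late and 39600 ± 4515 in early L1 females (SD, n = 8 each). The log2 change was -1.01 ± 0.12 (SE), a 2.02-fold fall, with an adjusted p of 1.13e-06 in edgeR.

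In the other 5 populations kra did not fall past the threshold. Its late libraries had medians of 35631 in L2, 55360 in S1, 67839 in S2, 48138 in C1 and 47101 in C2, beside early medians of 35103 in L2, 41203 in S1, 46420 in S2, 36811 in C1 and 39791 in C2. The log2 change was -0.16 in L2, 0.39 in S1, 0.45 in S2, 0.28 in C1 and 0.28 in C2. The L1 change was below the mean of these by 1.26 on the log2 scale (SE 0.14, adjusted p of 1.43e-07 in edgeR). Taken against each population by itself, it was lower at an adjusted p of 3.30e-06 for S1, 1.13e-06 for S2, 2.09e-05 for C1 and 4.74e-05 for C2. Against L2 the difference was -0.86 ± 0.17 with an adjusted p of 0.00409, which missed the threshold of 0.001. In L1 males kra had a median of 27503 in late and 25315 in early libraries, with a log2 change of 0.08 ± 0.12 (adjusted p of 0.63 in edgeR).

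No gene differed from each of the 5 other populations at once. The test took the largest of the 5 p-values of the pairwise differences, and with edgeR 0 of 10076 genes (0.0%) passed at an adjusted p under 0.001, while 44 had a largest p under 0.05 before adjustment. DESeq2 also gave 0, and edgeR with every library as a unit gave 1. Among the 47 genes, 13 had a largest p under 0.05 before adjustment, and kra was lowest with 1.42e-05 (adjusted p of 0.143). Differences from a single population passed in 17 genes for L2, 12 for S1, 6 for S2, 4 for C1 and 1, kra, for C2.

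The change in L1 differed from the mean change of the other 5 populations in 9 genes (0.0893%) by edgeR at an adjusted p under 0.001, and 1712 genes had an unadjusted p under 0.05. Of these, 7 were lower in L1 than the mean, namely CG12560, CG3397, kra, nxf2, Ae2, CG2187 and CG6028, and 2 were higher, CG10151 and lncRNA:CR45346. Of the 9, CG12560, CG3397, kra, nxf2, CG2187 and CG6028 also changed within L1. Ae2, CG2187, CG10151 and lncRNA:CR45346 lie outside the rule by which genes were named and were chosen after their values were seen. Leaving out both pools that stood apart gave 14 genes, and leaving out generation 11 of L1 left 2.

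**Figure D1:**
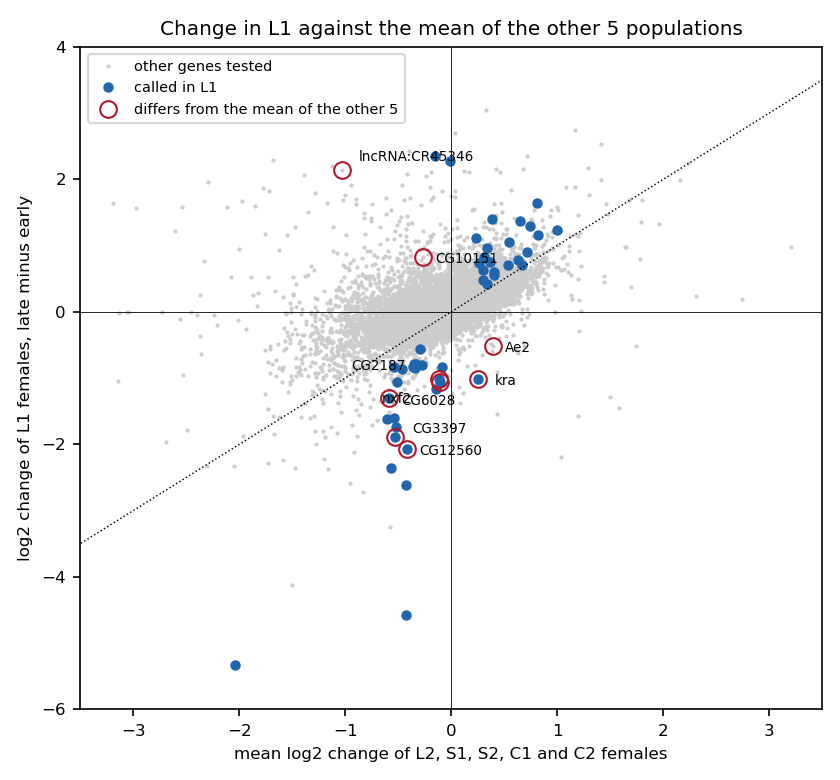
Each point is 1 of the 10076 genes tested in females, with the mean log2 change of L2, S1, S2, C1 and C2 on the x axis and the log2 change of L1 (late minus early) on the y axis; the dotted line marks equal change, and 1 gene lies outside the axes. The 47 genes called in L1 are blue, and the 9 that differ from the mean of the other 5 populations are ringed, 7 below the line and 2 above it.

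CG12560 (FBgn0031974, 2L:8008302-8009477) fell 4.20-fold in L1. It had 78.9, 131 and 160 normalized counts in the late libraries (lowest, median and highest) and 308, 487 and 813 in the early ones. All late libraries were below all early ones, at a log2 change of -2.07 ± 0.20 (adjusted p of 6.17e-09 in edgeR). The fall was shared with C1, where the log2 change was -1.81 and passed the test, while the changes of 0.39 in L2, 0.38 in S1, -0.60 in S2 and -0.46 in C2 did not pass. The difference from the mean of the other 5 was -1.65 ± 0.22 (adjusted p of 1.50e-05 in edgeR). In L1 males the gene fell by 0.79 on the log2 scale (adjusted p of 0.000204).

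CG3397 (FBgn0037975, 3R:11983098-11984541) was lower in every late than in every early L1 library. The late libraries had 68.8, 87.8 and 165 normalized counts, and the early ones had 289, 381 and 539 (lowest, median and highest of 8). Its log2 change of -1.89 ± 0.21 (adjusted p of 8.13e-08 in edgeR) stood beside -0.87 in L2, which also passed the test, and -0.26 to -0.62 in S1, S2, C1 and C2, which did not. The difference from the mean of the 5 was -1.36 ± 0.22 (adjusted p of 0.000535).

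The gene nxf2 (FBgn0036640, 3L:16576859-16580306, minus strand) fell in L1. Its product works with Panoramix to silence the transposons that piRNAs target. The late L1 libraries held 564, 768 and 1206 normalized counts of nxf2, against 1313, 1750 and 2006 in the early ones (lowest, median and highest). The highest late library was below the lowest early one. For nxf2 the log2 change was -1.06 ± 0.15 (adjusted p of 1.68e-05 in edgeR), and it was 0.38 in L2, 0.20 in S1, 0.11 in S2, -0.61 in C1 and -0.61 in C2, none past the threshold. The difference from their mean was -0.96 ± 0.16 (adjusted p of 0.000804). Its end overlaps mbf1 on the other strand, and since the strand setting of the counting is not given in the sources used here, reads of the overlap could be of either gene. An annotated copy of the telomeric retrotransposon TART-A also overlaps nxf2, on its own strand. In all, 29 of the 47 genes, nxf2 among them, overlap a gene or annotated element on the other strand, against 44.4% of all genes tested.

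The gene rhi (FBgn0004400, 2R:17628491-17633516) encodes Rhino, a protein of the HP1 family that marks the piRNA clusters transcribed from both strands. Late L1 libraries had 4479, 5507 and 7245 normalized counts, and early ones had 2787, 3244 and 4162. The groups did not overlap, and the log2 change was 0.75 ± 0.13 (adjusted p of 0.000306 in edgeR). In L2 it rose by 0.89 on the log2 scale, past the threshold, and in S1, S2, C1 and C2 the changes were 0.02, 0.26, 0.34 and 0.30, which did not pass. The L1 change did not differ from the mean of the other 5 at the threshold (difference of 0.39 ± 0.14, adjusted p of 0.191 in edgeR). It overlaps CG10936 on its own strand. In males rhi was near its floor, with medians of 39.3 in late and 38.6 in early L1 libraries.

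The largest fall of a gene above the naming level was narya (FBgn0031018, X:19475063-19476055), which encodes a RING finger protein needed for meiotic DNA breaks. Late L1 libraries had 7.07, 11.0 and 17.7 normalized counts, against 58.1, 191 and 616 in the early ones. All late libraries lay within a narrow low range, while the early ones were spread widely, with generation 0 highest. Its log2 change was -4.58 ± 0.75 (adjusted p of 0.000166 in edgeR). The same gene fell in S1 (log2 change of -4.90, past the threshold), and was 2.05 in L2, -1.02 in S2, 0.76 in C1 and 0.99 in C2. In L2 the late libraries reached medians of 845, against 189 in the early ones, and the difference between L1 and L2 passed the test (adjusted p of 7.09e-05). It lies inside CG32533, which is on the other strand.

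The subunit gene of a structure-specific nuclease, slx1 (FBgn0037263, 3R:4641963-4644636), had 106, 139 and 167 normalized counts in late and 205, 322 and 427 in early L1 libraries. This gave a log2 change of -1.17 ± 0.18 (adjusted p of 9.66e-05 in edgeR), and no other population passed, with changes from -0.58 in L2 to 0.17 in S2. It shares its start with MED31 on the same strand, so its count depends on how shared reads were treated. The DNA ligase gene lig3 had 891, 1044 and 1293 normalized counts in late and 1530, 1847 and 2203 in early L1 libraries, a log2 change of -0.83 ± 0.13 (adjusted p of 0.000136) that no other population shared at the threshold. The difference of lig3 from the mean of the other 5 was -0.74 ± 0.15 and missed the threshold (adjusted p of 0.00418). Lig3 was chosen after its values were seen.

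**Figure D2:**
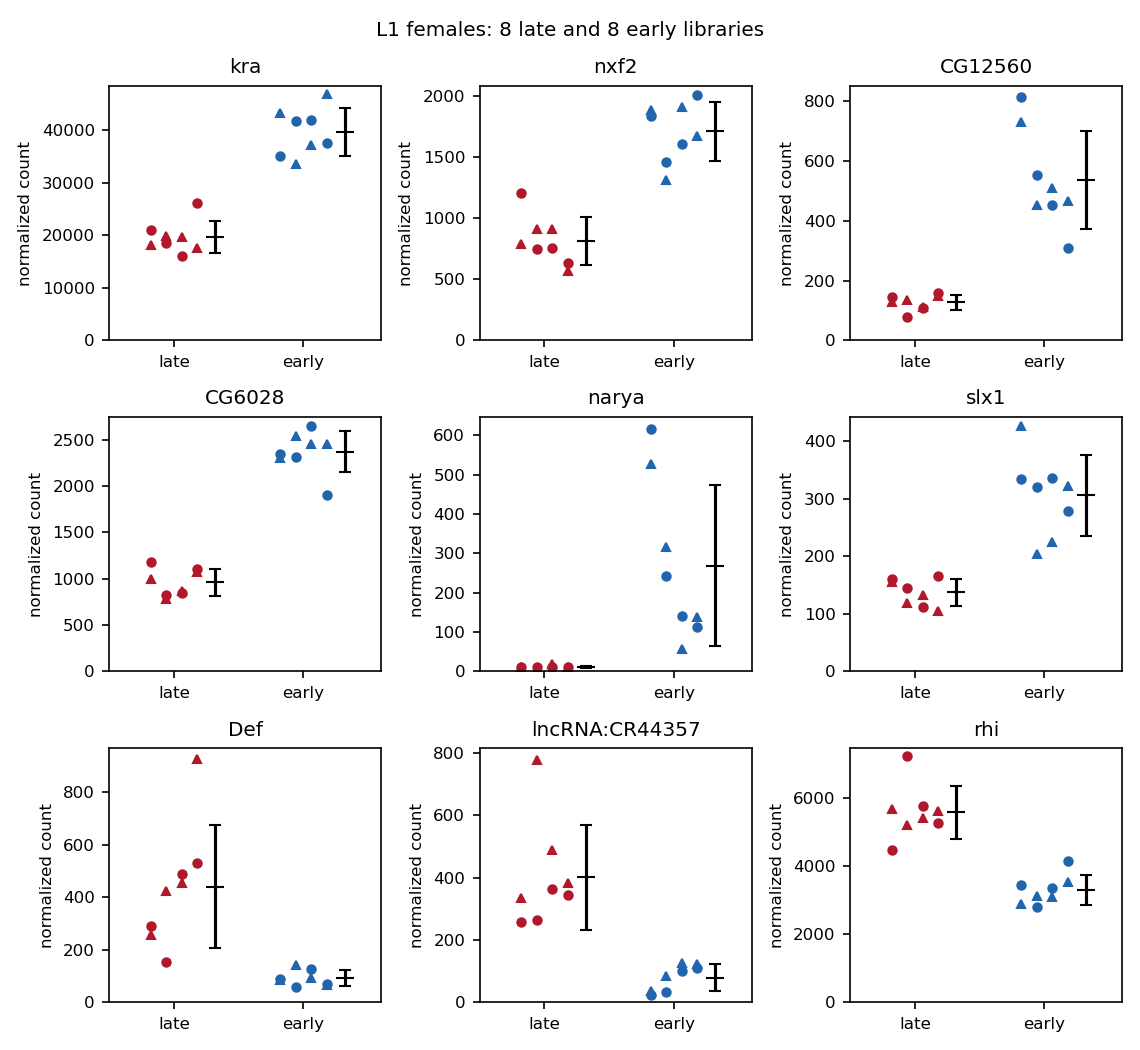
Normalized counts (y axis, from 0) of 9 genes in the 8 late (red, left) and 8 early (blue, right) L1 female libraries, ordered by generation within a group, with pool 1 as circles and pool 2 as triangles, and mean ± SD as black bars. In all 9 genes the late and the early libraries do not overlap, which was a condition for naming them. The genes kra, nxf2, CG12560, CG6028, narya and slx1 are lower in late and Def, lncRNA:CR44357 and rhi higher.

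Of 30 antimicrobial peptide genes tested, 1 passed with edgeR, Def, where 0.466% of all genes tested did. Def (FBgn0010385, 2R:10054178-10054576) encodes Defensin, a peptide that acts mainly on Gram-positive bacteria. It had 154, 439 and 925 normalized counts in late and 57.1, 87.4 and 144 in early L1 libraries. The lowest late library was above the highest early one, at a log2 change of 2.28 ± 0.39, a 4.87-fold rise (adjusted p of 0.000306 in edgeR). Def overlaps magu on the other strand. The early L1 median was below that of every other population. Early medians were 296 in L2, 159 in S1, 168 in S2, 169 in C1 and 258 in C2, and late medians were 290 in L2, 107 in S1, 183 in S2, 267 in C1 and 238 in C2. The log2 changes were 0.27 in L2, -0.78 in S1, 0.10 in S2, 0.49 in C1 and -0.14 in C2, none past the threshold. The difference from their mean was 2.30 ± 0.42 (adjusted p of 0.00251). In L1 males Def had medians of 92.7 in late and 223 in early libraries (log2 change of -1.57 ± 0.71, adjusted p of 0.102). The summed level of the 35 antimicrobial peptide genes overlapped, at 21099 to 75364 in late and 15843 to 48864 in early L1 females.

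Genes without a protein product made up 5 of the 23 rises and 2 of the 24 falls, while 2.24% of the genes tested were not protein coding. The largest rise was that of lncRNA:CR44357 (FBgn0265457, X:7166451-7405797). It had 259, 354 and 779 normalized counts in late and 24.7, 92.0 and 126 in early L1 libraries, with no overlap. The rise was 2.36 ± 0.41 on the log2 scale (5.14-fold, adjusted p of 0.000306 in edgeR), and in the other 5 populations it lay between -0.42 in L2 and 0.28 in C2. The difference from their mean was 2.51 ± 0.45 (adjusted p of 0.00138), just short of the threshold. This gene spans many others, among them Cph on the other strand, which also rose (log2 change of 1.17 ± 0.22, adjusted p of 0.000867), and reads of the shared stretch could be of either. Cph encodes a zinc finger transcription factor, and unlike lncRNA:CR44357 it rose past the threshold in L2 and S2 too.

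The other noncoding rises were shared with further populations. In late and early L1 libraries the medians were 258 and 89.7 normalized counts for asRNA:CR43971, 491 and 201 for lncRNA:CR43496, 123 and 52.0 for lncRNA:CR45036, and 3129 and 1623 for lncRNA:CR42549. None of the 4 had overlapping groups. Their log2 changes were 1.37, 1.30, 1.24 and 0.91 in the same order, and all 4 rose in L2 as well. Of them, 3 overlap genes on the other strand, asRNA:CR43971 with Ctps, lncRNA:CR43496 with sov and lncRNA:CR45036 with CG6163, and lncRNA:CR42549 lies in mura on its own strand. The rises of asRNA:CR43971, lncRNA:CR43496, lncRNA:CR45036 and lncRNA:CR42549 could thus include reads of those genes.

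**Figure D3:**
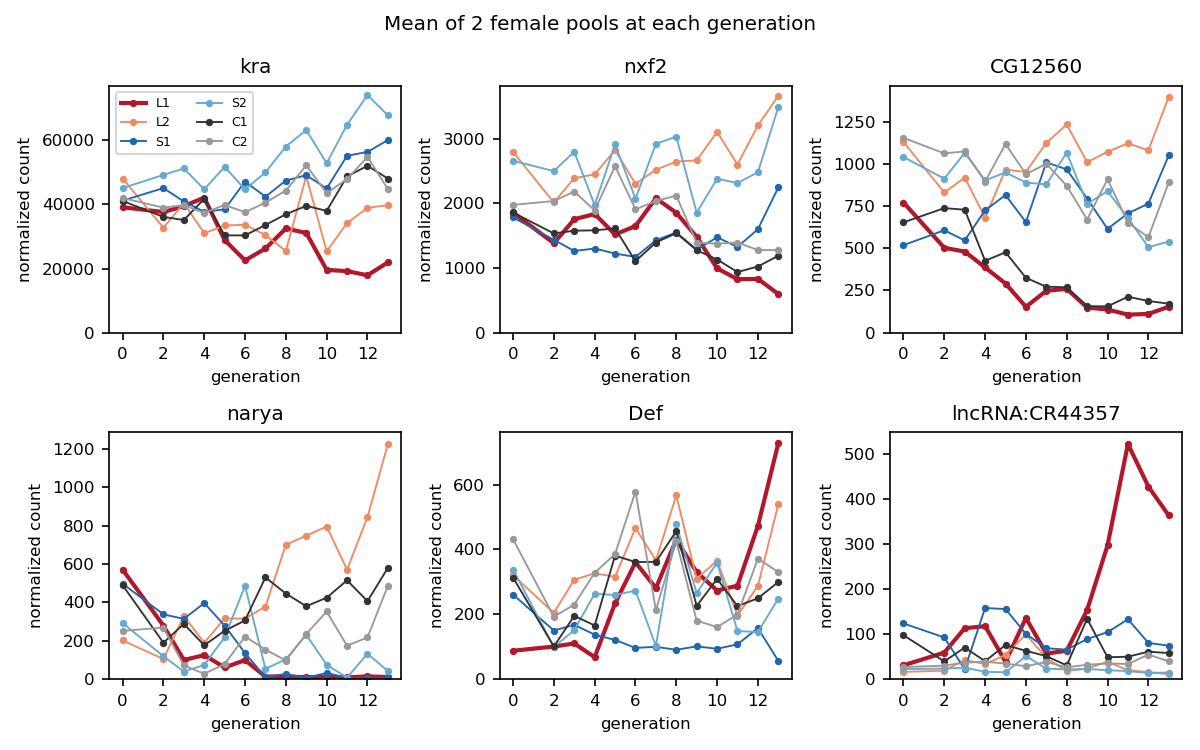
Mean normalized count of the 2 female pools (y axis, from 0) at each of the 13 generations sampled (x axis) for 6 genes, with L1 as the thick red line and L2, S1, S2, C1 and C2 as thin lines. The L1 line of kra ends lowest, the L1 lines of Def and lncRNA:CR44357 end highest, CG12560 falls in both L1 and C1, and narya falls in L1 and S1 while it climbs in L2.

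The courses over the generations differed between genes. For kra the mean of the 2 L1 pools was 39134 at generation 0, 42150 at generation 4, 28897 at generation 5, 32511 at generation 8 and 19581 at generation 10. It stayed at 17893 to 21906 from generation 10 on. For nxf2 it was 1858 at generation 0, 1855 at generation 8, 995 at generation 10 and 598 at generation 13, so that the low level was reached after generation 8. For CG12560 it was 772 at generation 0, 386 at generation 4 and 153 at generation 6. For narya it was 571 at generation 0, 125 at generation 4 and 13.3 at generation 7, and it was 8.91 at generation 11 and 14.0 at generation 12. For Def it was 67.7 at generation 4, 234 at generation 5 and 727 at generation 13. The 10 middle libraries of generations 5 to 9 took no part in the test, and their mean lay between the late and the early mean in all 47 genes, against 54.6% of all genes tested; since the genes were picked for a difference of the outer means, nothing was read from this.

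Other genes with a role known from their family were few. Cyp9f3 (FBgn0038034, 3R:12396007-12398929), the only 1 of 73 cytochrome P450 genes tested that passed with edgeR (0.466% of all genes tested did), encodes or once encoded a detoxifying enzyme, carries the name of a pseudogene in the files and overlaps Sol1 on the other strand. It had 59.4, 105 and 153 normalized counts in late and 188, 207 and 302 in early L1 libraries, with a log2 change of -1.06 ± 0.19 (adjusted p of 0.000340 in edgeR). It fell by 1.02 on the log2 scale in L2, also past the threshold, and fell by 1.57 in L1 males (adjusted p of 0.000265). DESeq2 called 2 cytochrome P450 genes, Cyp9f3 and Cyp6a9, against 1.09% of all genes tested. Cyp6a9 averaged 369 ± 65.8 normalized counts in late and 665 ± 91.7 in early L1 females (SD, n = 8 each), with an adjusted p of 0.00679 in edgeR and 0.000586 in DESeq2, and was chosen after its values were seen. EcR, the receptor of the moulting hormone ecdysone, was the only 1 of 24 hormone response genes tested that passed with edgeR. It had 3117, 5430 and 9502 normalized counts in late and 2466, 3028 and 4504 in early L1 libraries, and these groups overlapped. Its log2 change was 0.78 ± 0.14 (adjusted p of 0.000309), and it rose past the threshold in L2, S2 and C1 as well.

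Ten-m, a teneurin that matches synaptic partners, had 2256, 2656 and 3596 normalized counts in late and 1701, 2025 and 2179 in early L1 libraries. The groups did not overlap, and the log2 changes of 0.47 in L1 and 0.49 in L2 both passed. The zinc finger gene tio (tiptop) had 195, 228 and 316 normalized counts in late (lowest, median and highest) and 104 to 128 in early L1 libraries. It rose in L1 (log2 change of 1.05 ± 0.19) and in C1 (1.12), and L2 had 0.15.

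Of the genes without a known role, CG6028 (FBgn0038924, 3R:22024259-22025506) had the smallest p. The late L1 libraries had 786, 936 and 1183 normalized counts, and the early ones had 1901, 2403 and 2654. CG6028 thus had a log2 change of -1.31 ± 0.11 (adjusted p of 7.07e-11 in edgeR), and it overlaps mRpL35 on the other strand. Falls past the threshold were also found in L2 (-0.44), S2 (-0.55) and C1 (-0.94), and L1 fell further than the mean of the 5 by 0.72 on the log2 scale (SE 0.12, adjusted p of 0.000535). CG17721 had medians of 153 in late and 439 in early L1 libraries, while euc had 30.1 to 64.1 in late and 64.2 to 301 in early ones, and CG14053 had medians of 76.8 in late and 148 in early ones. All 3 had no overlap, with log2 changes of -1.60 for CG17721, -1.74 for euc and -0.84 for CG14053. CG14053 fell in L2 also (-0.74), while CG17721 and euc passed in no other population. For CG17721 the log2 changes were -0.74 in L2, -0.11 in S1, -0.42 in S2, -0.82 in C1 and -0.61 in C2. Those of euc were 0.32 in L2, -0.96 in S1, 0.01 in S2, -1.03 in C1 and -0.95 in C2. Neither gene differed from the mean of the 5 at the threshold (edgeR, adjusted p of 0.0896 for CG17721 and 0.0254 for euc). CG1503 had medians of 712 in late and 398 in early L1 libraries and CG9123 had 1398 in late and 835 in early ones. CG1503 rose in L2 and S2 as well, and CG9123 in S2 and C1 but not in L2 (-0.17), where the difference from L1 passed (adjusted p of 0.000431).

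CG2187 had 962, 1292 and 1609 normalized counts in late and 2062, 2624 and 3139 in early L1 libraries. The log2 change was -1.01 ± 0.13 (adjusted p of 5.89e-06 in edgeR), and in the other 5 populations it lay between -0.29 in C2 and 0.09 in S2. The difference from their mean was -0.89 ± 0.15 (adjusted p of 0.000535). Ae2, an anion exchanger, had medians of 5387 in late and 7044 in early L1 libraries, a log2 change of -0.51 that missed the threshold (adjusted p of 0.00734), beside a rise of 0.93 in S2 that passed. CG10151 had medians of 176 in late and 100.0 in early L1 libraries (log2 change of 0.83, adjusted p of 0.00215), and its changes in the other populations lay between -0.55 in L2 and 0.11 in C1. For lncRNA:CR45346 the medians were 49.1 in late and 12.9 in early L1 libraries (log2 change of 2.15, adjusted p of 0.00503). In L2 this gene was at 0 to 0.993 normalized counts in late libraries, against a median of 23.1 in early ones. L1 differed from L2 (adjusted p of 1.80e-08) and from none of the other 4 populations at the threshold, and the fitted change of a gene at 0 depends on the prior count.

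Of the 47 genes, 31 changed in the same direction past the threshold in at least 1 other population, 18 rises and 13 falls, and 16 in none, 5 rises and 11 falls. The 16 were CG14881, CG17721, CG17816, CG2187, CG32814, CG9121, Def, Seipin, asRNA:CR17025, euc, kra, lig3, lncRNA:CR44357, nxf2, slx1 and ste24b. A miss in the other 5 populations is not a test of a difference, and of these 16 only kra, nxf2 and CG2187 differed from the mean of the 5 at the threshold. The 47 comprised 25 genes called in the same direction in L2, which called 1985 (19.7%), 13 in S2, which called 1669 (16.6%), 12 in C1, which called 141 (1.4%), 5 in C2, which called 859 (8.53%), and 1, narya, in S1, which called 11 (0.109%). The shared genes were 53.2% of the L1 list and 1.26% of the L2 list, and 25.5% of the L1 list and 8.51% of the C1 list. None of the 47 was called in the opposite direction in any of the 5. Across all genes tested the median size of the log2 change was 0.21 in L1, 0.35 in L2, 0.21 in S1, 0.32 in S2, 0.26 in C1 and 0.29 in C2.

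Both long populations and no other called 11 genes in 1 direction (0.109%). The 4 rises were rhi, Ten-m, fd102C, a forkhead gene, and asRNA:CR43971, and among the 7 falls were CG14053, CG4306, CG3397, Cyp9f3, CG5961 and Targ1, an ADP-ribose hydrolase. In edgeR's tests of the L1 change against that of each short and control population, CG3397 passed against S1 (adjusted p of 0.000916) and not against S2, C1 or C2, and none of the other 10 genes passed against any of the 4.

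**Figure D4:**
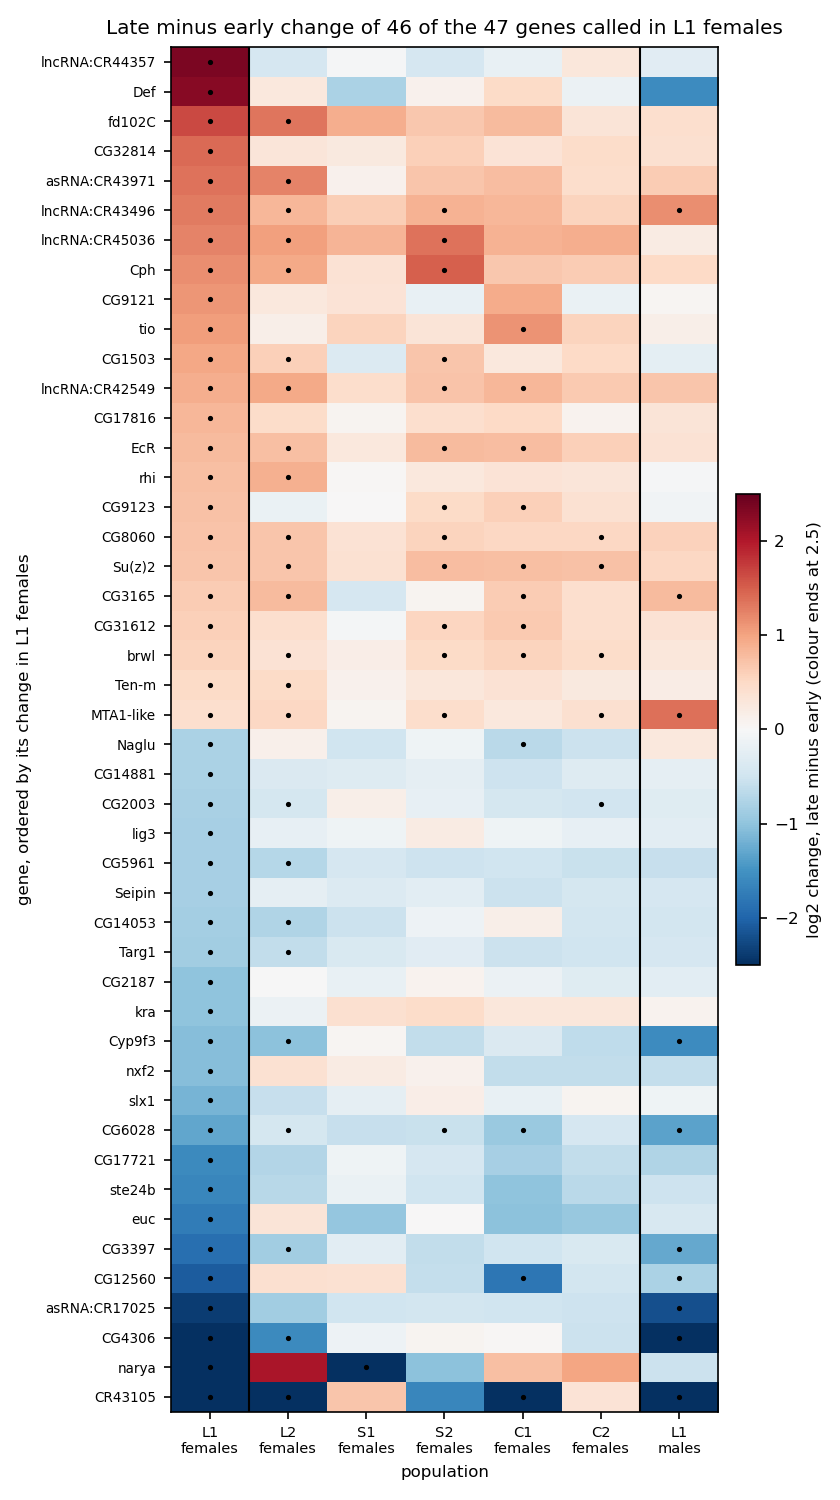
Log2 change (late minus early, red higher and blue lower in late, colours ending at 2.5) of 46 of the 47 genes called in L1 females (rows) in the females of L1, L2, S1, S2, C1 and C2 and in L1 males (columns), with a dot where the change passed an adjusted p of 0.001. Most rises are red in the other columns too, while Def, lncRNA:CR44357 and kra stand out as rows whose colour is strong only under L1 females or of the other sign elsewhere.

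Part of the change followed a step that all populations took between generations 8 and 9. With the means of the 2 pools, 747 of 10076 genes in L1 had every generation from 9 on above, or every one below, all generations up to 8, and 124 genes did so in the same direction in all 6 populations. At the neighbouring splits the number of genes separated in all 6 was 1 between generations 7 and 8 and 0 between generations 9 and 10, and over the 7 other splits between generations 3 and 11 it did not exceed 5. Of the 47 genes, 23 were separated at this split in L1, and 4 in all 6 populations, among them CG6028, Su(z)2 (a Polycomb group gene) and lncRNA:CR42549. The 47 were picked for a late against early difference, so the count in L1 is partly built in. In L1, 15 of the 47 were separated between generations 4 and 5, where 158 of all 10076 genes were. Between generations 10 and 11, 20 of the 47 and 334 of all 10076 genes were separated in L1. CG6028, for example, had pool means of 2133 in L1, 2873 in L2, 2792 in S1, 3237 in S2, 2717 in C1 and 3078 in C2 at generation 8, and 941 in L1, 1816 in L2, 1663 in S1, 1870 in S2, 1193 in C1 and 1930 in C2 at generation 9. The fall of CG6028 in L1 held such a step, and in L1 the generations 5 to 7 were already at 1630 to 1905. In lncRNA:CR44357, CG17721, CG9121 and lig3 the split separated L1 and none of the other 5 populations. What changed between these generations was not tested, and kra, nxf2, CG12560, narya and Def were not separated there in L1. This pattern was noticed in the data and has no test.

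**Figure D5:**
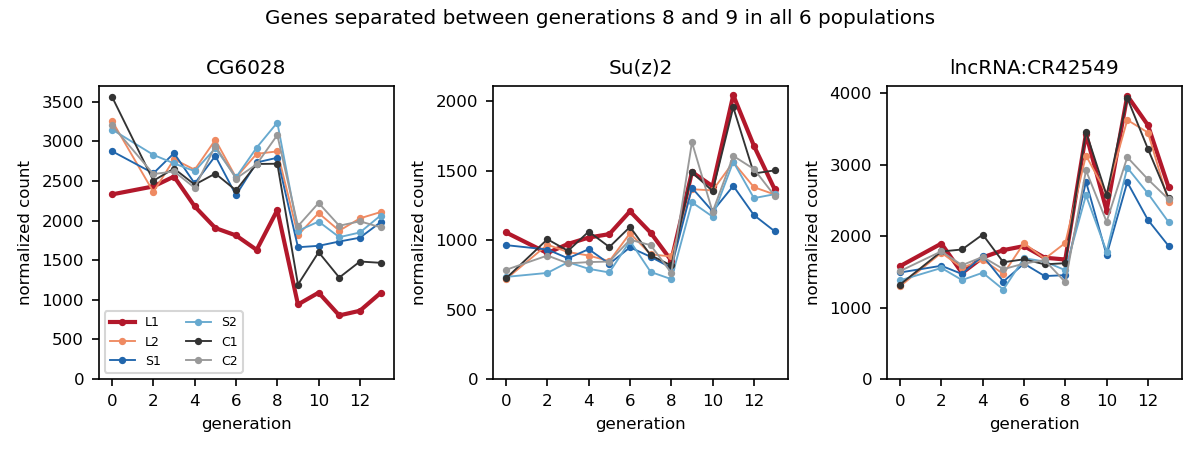
Mean normalized count of the 2 female pools (y axis, from 0) at each generation sampled (x axis) for 3 genes of the 47 that were separated between generations 8 and 9 in all 6 populations, with L1 as the thick red line. CG6028 is lower and Su(z)2 and lncRNA:CR42549 higher from generation 9 on, and the 6 lines move together.

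In L1 males, the same comparison called 155 of 13849 genes (1.12%). All 47 female genes were tested in males, and 10 changed in the same direction past the threshold: CG12560, CG3165, CG3397, CG4306, CG6028, CR43105, Cyp9f3, MTA1-like, asRNA:CR17025 and lncRNA:CR43496. They are 21.3% of the female list and 6.45% of the male list, and none of the 47 was called in the opposite direction. The sign was the same in 40 of the 47, without a share over all genes to set beside it. CG4306 had medians of 62.2 in late and 732 in early L1 males, and of 7.50 in late and 57.9 in early L1 females. MTA1-like, a subunit of the NuRD chromatin complex, had medians of 12747 in late and 5395 in early L1 males (log2 change of 1.37 ± 0.19), and of 17112 in late and 12866 in early L1 females (0.42 ± 0.08). Sexes were fitted apart, and the difference between them was not tested. MTA1-like lies 37.5 kb from kra on 3R and moved the other way in females.

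By position, 13 of the 24 falls were on chromosome arm 3R (54.2%), against 3 of the 23 rises (13.0%) and 24.9% of the genes tested. The 13 were asRNA:CR17025, CG14881, CG17721, CG2003, CG2187, CG3397, CG5961, CG6028, Cyp9f3, euc, kra, lig3 and slx1. Cyp9f3 and CG5961 lie 59.5 kb apart, and no other pair of falls with coordinates lies within 100 kb. The gene lig3 had no coordinates and was left out of this check. Over a wider stretch of 3R, CG17721, CG3397, Cyp9f3 and CG5961 start at 11235140, 11983098, 12396007 and 12458421.

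Of the lists that describe sleep, none of 40 sleep regulators and none of 21 clock genes passed in L1 with edgeR at an adjusted p under 0.001. Among all genes tested 0.466% passed, a share at which lists of this size can hold none. At an unadjusted p under 0.05 there were 15 sleep regulators (37.5%) and 9 clock genes (42.9%), against 29.6% of all genes tested. DESeq2 called 0 sleep regulators and 1 clock gene, against 1.09% of all genes tested. That gene was cyc (cycle), the partner of Clock, with 4169 ± 271 normalized counts in late and 5609 ± 292 in early L1 females (SD, n = 8 each), a log2 change of -0.43 ± 0.10 with an adjusted p of 0.00753 in edgeR and 0.000173 in DESeq2. The other 5 populations had changes of cyc between -0.17 in C1 and 0.11 in S2. Of the clock genes, cyc was the only 1 lower in late L1 females at an adjusted p under 0.05 in edgeR. CkIIbeta, mts, tws, nmo and Pdfr, 5 in all, were higher at that level. Their log2 changes were positive in each of the other 5 populations too. At an adjusted p under 0.05, 6 sleep regulators were higher and none lower in late L1 females, among them the potassium channel gene Sh (1088 in late and 573 in early) and the GABA receptor gene Rdl (582 in late and 322 in early). The log2 change of Sh was 0.93 in L1, -0.10 in L2, 0.78 in S1, 0.54 in S2, 1.37 in C1 and 0.29 in C2, and that of Rdl was 0.85 in L1, -0.09 in L2, 0.73 in S1, 0.38 in S2, 1.08 in C1 and 0.18 in C2. Over all genes tested, 755 were higher and 294 lower at that level. These genes were chosen after their values were seen.

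Of the remaining lists, none of 25 eggshell and ovary genes, 20 insulin signalling genes, 17 heat shock genes, 28 neuropeptide genes, 84 cytoplasmic ribosomal protein genes and 25 sarcomere genes passed with edgeR. At an unadjusted p under 0.05 there were 0 eggshell and ovary, 7 insulin signalling, 3 heat shock, 6 neuropeptide, 27 ribosomal protein and 8 sarcomere genes, or 0.0%, 35.0%, 17.6%, 21.4%, 32.1% and 32.0% of the lists in that order, against 29.6% of all genes tested. DESeq2 called 1 ribosomal protein gene and 0 in the other 5 lists, against 1.09% of all genes tested. Over the 774 tested members of all 31 lists together, 3 genes passed with edgeR, namely Def, EcR and Cyp9f3, beside 47 of all 10076 genes tested (0.466%).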

How the data were processed

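Libraries were poly-A selected and stranded, and read pairs were aligned by the authors with STAR to the FlyBase 6.07 annotation. The deposited raw counts per gene are uniquely mapped reads counted by the authors with HTSeq, whose strand setting is not given in the sources used here, and every row names a gene. The deposited normalized counts, a signal per gene, are raw counts that the authors divided by 1 size factor per library (0.740 to 2.47). Normalized counts were computed here for all 17478 genes with the same factors. Symbols and coordinates were matched for 17219 genes to BDGP6.54, which annotates the same release 6 genome at a later date.

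The pools of a generation share their parents, so counts were summed over both. Genes entered when the normalized count passed 102 in at least 1 female library (48.6 for males). The edgeR 4.0.16 (R 4.3.3) quasi-likelihood test was fitted to 48 sums of 96 female libraries, with 12 means for population and period and the authors' factors as offsets, two-sided, Benjamini-Hochberg adjusted over all genes, called under 0.001. The 12 means share 1 estimate of spread. Samples of a population and generation are pools of the same bottle, so p-values measure the spread between generations within a bottle. This spread was pooled over the bottles of all female populations and is not that of the L1 bottle alone. When only the 8 sums of L1 were fitted, which uses the spread of that bottle alone, 0 genes passed. The count of the 2 pools of a generation differed by more than counting error, since chi-square over its degrees of freedom was 14.8 to 237 in L1 females. Alternatives were DESeq2 1.42.0, TMM, no filter, libraries as units, left-out pools and generations, L1 alone, generation as a shared factor, a slope over 13 generations and a looser threshold. The test was also run on simulated counts, drawn independently for each sum. Successive generations of a bottle share ancestry, so this run cannot give the error rate in these data.

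Named were, among genes called with late and early libraries not overlapping and a higher mean of at least 100, the 10 largest rises and 10 largest falls, the 8 largest of each among genes that differ from each other population (none), the 3 largest rises and falls called in both long populations and no other, and up to 4 called members of each list, 23 in all. The comparison, the members and the 31 gene lists were chosen with earlier results of these data known, and symbols in the lists were respelled after the files were read. Of the 47 genes, 1 is counted but not reported here by name.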

Additional observations from a re-analysis of the deposited data

Results flagged for a closer look

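In 54 groups of 8 libraries (late or early L1 females, for each gene named or differing from the other populations), 5 had a library far from the others, where chance flags about 1 in 20 groups. They were lncRNA:CR44357 with 779 normalized counts in pool 2 of generation 11, rhi with 7245 in pool 1 of generation 11 and narya with 17.7 in pool 2 of generation 12 among late libraries, and CG6028 with 1901 in pool 1 of generation 4 and Cyp9f3 with 302 in pool 2 of generation 2 among early ones.

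By the test of the difference itself, 9 genes changed differently in L1 and in the mean of the other 5 populations. On the log2 scale the differences (L1 minus the mean of the others) were -1.65 for CG12560, -1.36 for CG3397, -1.26 for kra, -0.96 for nxf2, -0.90 for Ae2, -0.89 for CG2187, -0.72 for CG6028, 1.10 for CG10151 and 3.18 for lncRNA:CR45346.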

How the results depend on the processing

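The number of genes changed in L1 females, 47, was 903 with libraries as units, 900 with the replicate block added, 110 with DESeq2, 0 when only the 8 sums of L1 were fitted and 1049 at an adjusted p under 0.05. All 47 were among the 903, the 110 and the 1049. Leaving out a set of pools or a generation gave 10 to 63. The number that differs from the mean of the other 5 populations, 9, was 58 with libraries as units, 57 with the block, 32 with DESeq2, 29 with generation as a shared factor, 52 at an adjusted p under 0.05, 14 without both pools that stood apart (an alternative chosen after seeing the data, as are those without 1 of them or without the C2 library) and 2 to 10 when pools or generations were left out. The number that differs from each of the 5, 0, was 1 with libraries as units and 1 with the block, and 0 in every fit with something left out. The number called in both long populations and no other, 11, was 29 with libraries as units, 29 with the block, 27 at an adjusted p under 0.05 and 0 to 12 when pools or generations were left out. The causes were not tested. Pool numbers pair nothing here: deviations of same-numbered pools correlated at -0.598 to 0.387 (median -0.00256 over 28 pairs). Of 483 values for the 23 named genes none reversed and 112 missed the threshold, and of 180 values for the 9 differences none reversed and 52 missed it. Of 21 alternatives, kra, CG12560 and CG6028 passed in 20, rhi and lncRNA:CR44357 in 14, Def in 12 and EcR in 10. The differences of kra and CG12560 passed in all 20 alternatives that gave them. Those of nxf2, CG2187, CG10151 and lncRNA:CR45346 passed in 11. Counts near the floor carry the least precision, as in lncRNA:CR45346.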
